A study of Mus musculus with 15 samples.

Results

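Transcripts of 10 genes that mark the distal nephron and the collecting duct of the kidney were followed across arrays of sorted kidney fibroblasts. The genes were Slc12a1, Umod and Kcnj1 of the thick ascending limb, Slc12a3, Egf, Pvalb and Calb1 of the distal convoluted tubule and its neighbours, and Aqp2, Aqp3 and Scnn1a of the collecting duct. The rule that selects them goes by gene symbol alone. A probe set was taken for a gene only if its annotation named that gene alone. Where several did, the brightest by its mean over the 15 arrays was used. All 10 were measured, out of 17097 genes in the data, and all 10 passed the filter on dim genes, as did 13523 genes in all.

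The cells came from kidneys of adult C57BL/6 mice and were sorted by flow cytometry for PDGFRa, a receptor for platelet-derived growth factors carried by interstitial fibroblasts. The 5 groups had 3 arrays each: kidneys at day 14 of unilateral ureteral obstruction (UUO), uninjured kidneys, and kidneys at day 3, day 7 and day 14 after acute injury by folic acid. UUO blocks the urine flow of a single kidney, and folic acid given in excess injures the tubule epithelium. The labels give no other allele or agent in any group, and no sex, no age beyond adult and no vehicle or sham operation for the uninjured mice. They number the arrays 1 to 15 and name no animal or pool behind an array. The spread used for the p-values is thus that between arrays, and it may be technical rather than between animals. Levels are log2 intensities made by the authors with RMA, a normalization that puts all arrays on a common scale.

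The distal nephron takes up sodium chloride without letting water follow, and the collecting duct then sets the final sodium and water content of urine. The thick ascending limb uses the furosemide-sensitive cotransporter encoded by Slc12a1, and the distal convoluted tubule uses the thiazide-sensitive cotransporter encoded by Slc12a3. Principal cells of the collecting duct take up sodium through the epithelial channel ENaC and water through aquaporins, under the control of aldosterone and vasopressin. These genes are known as products of tubule epithelium, which a sort for PDGFRa is not meant to capture.

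Promoter sequence of 8 of the 10 genes was found in RefSeq (build GRCm38.p6), for Slc12a1, Slc12a3, Kcnj1, Egf, Umod, Aqp2, Aqp3 and Pvalb, as the 250 bases before the start of transcription. Of the thick limb and distal tubule genes, Umod and Egf are printed here, and of the collecting duct genes Aqp2 and Aqp3, as examples of genes of different segments that were called together in UUO. The Umod window is chr7:119479263-119479512 on the minus strand, and the Egf window, before the first of its listed starts, is chr3:129755323-129755572 on the minus strand. The Aqp2 window is chr15:99578806-99579055 on the plus strand, and the Aqp3 window is chr4:41098184-41098433 on the minus strand. Each is written along its gene's own strand, with searched words in capitals.
Umod: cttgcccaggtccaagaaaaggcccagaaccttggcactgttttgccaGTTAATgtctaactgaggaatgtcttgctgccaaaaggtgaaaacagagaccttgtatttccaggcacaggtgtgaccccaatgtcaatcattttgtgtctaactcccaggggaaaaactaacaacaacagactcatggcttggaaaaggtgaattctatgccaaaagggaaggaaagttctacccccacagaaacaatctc
Egf: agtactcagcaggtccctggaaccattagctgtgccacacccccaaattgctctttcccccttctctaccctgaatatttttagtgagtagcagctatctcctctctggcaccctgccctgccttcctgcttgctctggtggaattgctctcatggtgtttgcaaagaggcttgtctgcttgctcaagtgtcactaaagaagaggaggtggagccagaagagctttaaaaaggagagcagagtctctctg
Aqp2: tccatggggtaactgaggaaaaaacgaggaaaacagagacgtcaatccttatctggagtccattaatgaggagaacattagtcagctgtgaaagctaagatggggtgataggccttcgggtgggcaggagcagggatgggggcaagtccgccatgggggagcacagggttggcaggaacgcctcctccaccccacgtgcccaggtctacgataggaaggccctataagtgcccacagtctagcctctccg
Aqp3: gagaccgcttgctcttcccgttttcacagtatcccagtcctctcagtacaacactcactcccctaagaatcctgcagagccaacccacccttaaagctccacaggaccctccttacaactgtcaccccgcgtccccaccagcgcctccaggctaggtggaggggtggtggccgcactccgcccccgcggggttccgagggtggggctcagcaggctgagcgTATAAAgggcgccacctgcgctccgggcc
The search covered both strands for GTTAAT, a word of the binding site of HNF1 factors, for AAGGTCA, a word bound by oestrogen-related receptors, and for TATAAA, the TATA box. The HNF1 word lies in 6.43% of 32851 promoter windows of this length and was found, among 10 windows of these genes, in that of Umod, 202 bases before the start. The TATA word lies in 12.4% of windows and was found 29 bases before the start of Aqp3 and 32 bases before that of Slc12a3. AAGGTCA lies in 4.08% of windows and was found in 0 of these 10. A matched word is a description of the sequence and not a tested site.

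Before the results by gene, the identity of the sorted cells was checked against marker lists. The mean log2 level of 13 fibroblast genes was 9.89 ± 0.0597 in UUO and 5.90 ± 0.414 in uninjured kidney (SD, n = 3 arrays each). It was 9.28 ± 0.145 at folic acid day 3, 9.17 ± 0.259 at day 7 and 8.42 ± 0.530 at day 14. The uninjured arrays, the control for all injury groups, were therefore low in fibroblast genes. Of the 13, 11 passed the test as higher in UUO and 9 at each day of folic acid. Pdgfra itself averaged 5.99 in UUO and 6.01 in uninjured kidney and passed in none of 10 comparisons. Proximal tubule markers went the other way: 12 measured markers averaged 5.61 ± 0.292 in UUO and 8.83 ± 0.676 in uninjured kidney. Against uninjured kidney, 3 of 5 podocyte markers and 3 of 8 endothelial markers were also called lower in UUO, while 2 of 8 markers of injured epithelium and 2 of 9 macrophage markers were called higher. At folic acid day 3, 5 of 12 proximal, 4 of 5 podocyte and 3 of 8 endothelial markers were called lower than in uninjured kidney. Called higher were 2 endothelial markers, 3 of 9 macrophage markers and 3 of 8 markers of injured epithelium. At day 7, 2 proximal and 3 podocyte markers were called lower, and 7 macrophage and 3 injured epithelium markers higher. By day 14, 0 of the podocyte, endothelial and proximal markers were called, and 6 macrophage and 2 injured epithelium markers were called higher. In UUO against folic acid day 14, 4 macrophage, 3 proximal, 1 podocyte and 1 endothelial marker were called lower, and 7 fibroblast genes higher. Of the 13523 genes tested, 1227 were called higher and 1017 lower in UUO against uninjured kidney. At folic acid day 3, 1440 were called higher and 864 lower, at day 7, 1014 and 566, and at day 14, 568 and 199. In UUO against folic acid day 14, 173 were called higher and 237 lower. The part of these marker shifts in the results on the distal genes was not tested. In bulk RNA of this kind, fewer cells of a type and less RNA per cell cannot be told apart.

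The first question was how the 10 genes differed between obstructed and uninjured kidney. In UUO all 10 were called lower by limma at an adjusted p under 0.05, where 7.52% of all genes tested were called lower. Their median log2 difference was -2.80, beside -0.00636 over all genes. In all 10 genes the 3 UUO arrays lay below the 3 uninjured arrays without overlap. The share of all genes separated in this way was not counted, so this only describes the values. The differences ran from log2 -4.85 for Egf to log2 -1.05 for Aqp2.

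Slc12a3, the salt cotransporter of the distal convoluted tubule, had the smallest adjusted p of the 10. It measured 5.13, 4.51 and 4.45 on the UUO arrays, against 9.11, 9.81 and 9.39 on the uninjured arrays. No UUO array came near an uninjured one, and the difference was log2 -4.74 (SE 0.434, 26.6-fold, limma adjusted p = 2.62e-05). Egf encodes the precursor of epidermal growth factor, which distal tubule cells release into urine. It measured 5.98, 5.35 and 5.62 in UUO, against 10.51, 11.06 and 9.92 in uninjured kidney, a difference of log2 -4.85 (SE 0.951, 28.9-fold, adjusted p = 0.00427). Calb1, the cytosolic calcium carrier calbindin, measured 4.62, 3.83 and 6.02 in UUO, against 9.34, 9.25 and 9.22 in uninjured kidney. The uninjured arrays were nearly identical for Calb1 and the UUO arrays spread widely, with a difference of log2 -4.45 (SE 0.609, 21.8-fold, adjusted p = 0.000407). Pvalb, the calcium buffer parvalbumin of the early distal convoluted tubule, was at 5.44, 5.48 and 5.45 in UUO, against 7.04, 7.69 and 6.44 in uninjured kidney (log2 -1.60, SE 0.460, adjusted p = 0.0317). The Pvalb call was lost on dropping a single array in 5 cases, which were the 3 UUO arrays and uninjured arrays 13 and 14.

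In the thick ascending limb, Slc12a1 measured 5.72, 5.10 and 5.60 in UUO, against 9.81, 10.65 and 8.77 in uninjured kidney. The groups were far apart, at log2 -4.27 (SE 0.656, 19.3-fold, adjusted p = 0.000952). Kcnj1, the potassium channel ROMK that returns potassium to the lumen, was at 5.17, 6.17 and 5.23 in UUO, against 8.81, 8.98 and 8.47 in uninjured kidney (log2 -3.23, SE 0.430, adjusted p = 0.000342). Umod encodes uromodulin, the abundant urinary glycoprotein of this segment. It was at 10.13, 8.77 and 10.01 in UUO, against 11.91, 12.15 and 11.17 in uninjured kidney. Its difference was log2 -2.11 (SE 0.537, 4.31-fold, adjusted p = 0.0179), and the call ended without UUO array 11 or without uninjured array 13 or 14.

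All 3 collecting duct genes fell as well. Aqp3, the water channel of the basolateral membrane, measured 5.63, 5.29 and 5.15 in UUO, against 7.64, 8.21 and 7.34 in uninjured kidney (log2 -2.37, SE 0.269, adjusted p = 0.000124). Scnn1a, the alpha subunit of ENaC, was at 5.96, 6.99 and 6.42 in UUO, against 8.33, 8.66 and 8.38 in uninjured kidney (log2 -2.00, SE 0.302, adjusted p = 0.000853). Aqp2, the vasopressin-regulated water channel, had the smallest difference of the 10. It measured 5.62, 5.70 and 6.07 in UUO, against 6.87, 6.99 and 6.68 in uninjured kidney (log2 -1.05, SE 0.237, 2.07-fold, adjusted p = 0.00945).

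Other probe sets gave the same call in UUO against uninjured kidney where a gene had them, apart from a probe set of Calb1 whose group means ran from 4.98 to 5.30 (log2 -0.202, adjusted p = 0.557). The second probe set of Slc12a3 gave a smaller difference (log2 -1.46, adjusted p = 0.00119), as did the dimmer one of Aqp3 (log2 -0.974, adjusted p = 0.00894).

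**Figure D1:**
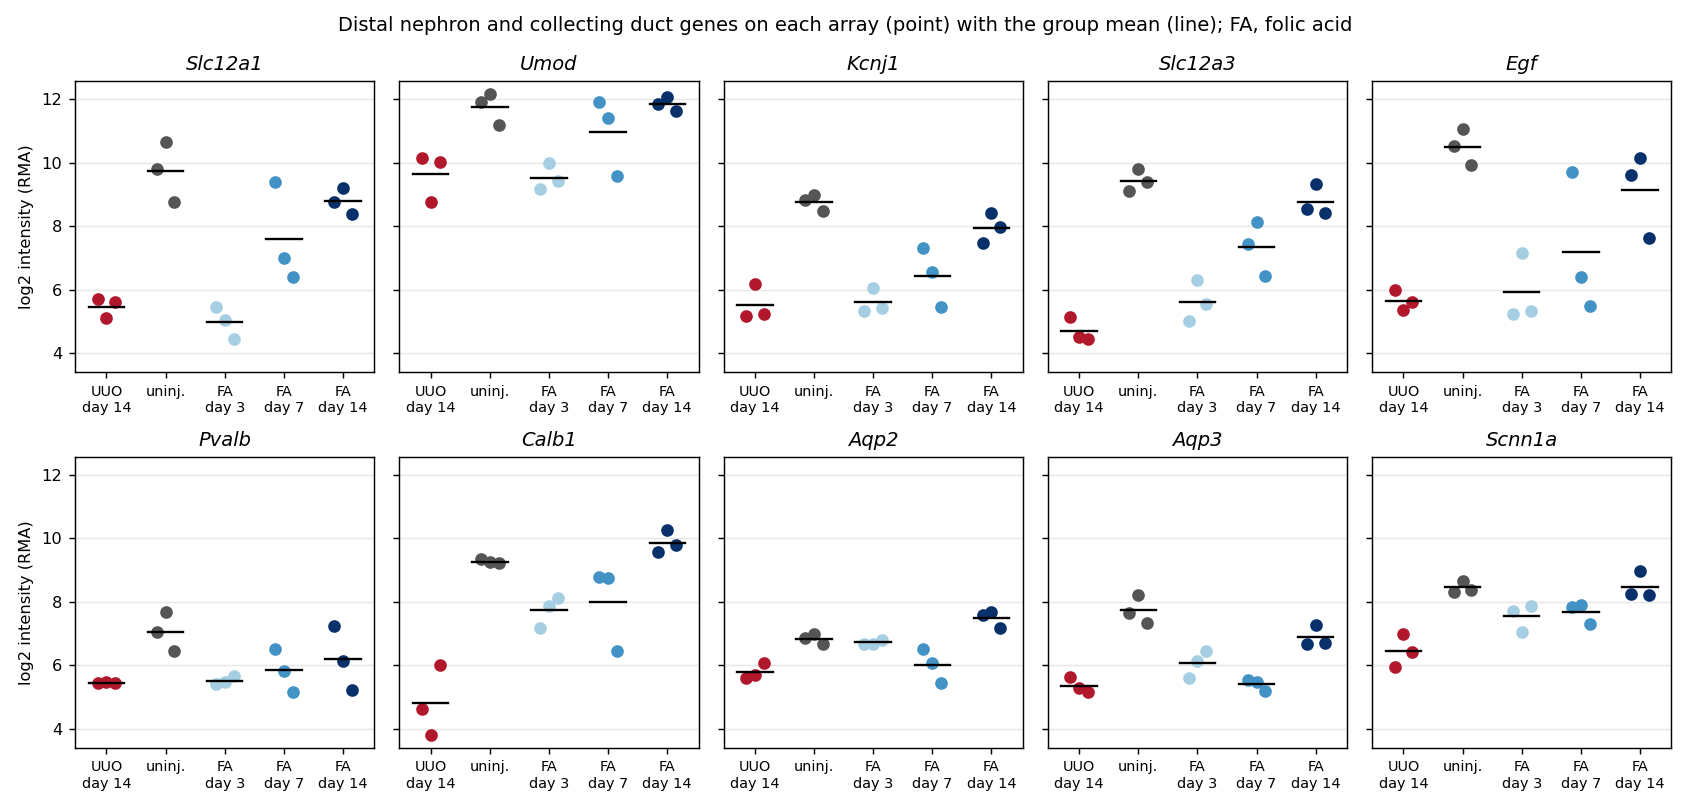
Each panel plots the log2 RMA intensity (vertical axis) of a gene on each of the 15 arrays (points) with the group mean (line), by group (horizontal axis). In all 10 panels the 3 UUO arrays lie below the 3 uninjured arrays, a separation that was not counted over all genes. Folic acid day 7 shows wide spread within the group, as for Egf, whose 3 arrays lie at 9.72, 6.39 and 5.49.

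The folic acid series asked how the genes moved after acute injury. At day 3 the test called 7 of the 10 lower than in uninjured kidney, where 6.39% of all genes were called lower. The median over the 10 was log2 -1.94, beside 0.0204 over all genes. Slc12a1 averaged 4.99 ± 0.507 at day 3 and 9.74 ± 0.942 in uninjured kidney (SD, n = 3 each), a difference of log2 -4.75 (SE 0.656, 26.9-fold, adjusted p = 0.000437). Its day 3 arrays, at 5.46, 5.06 and 4.45, included its lowest value of all 15. The log2 difference was -4.58 for Egf (adjusted p = 0.00604), -3.81 for Slc12a3 (adjusted p = 0.000125) and -3.15 for Kcnj1 (adjusted p = 0.000411). It was -2.22 for Umod (adjusted p = 0.0139), -1.66 for Aqp3 (adjusted p = 0.00129) and -1.54 for Pvalb (adjusted p = 0.0380). The call of Umod ended without array 1 or array 14, and that of Pvalb without array 1, 2, 3, 13 or 14. The dimmer probe set of Aqp3 was not called at day 3 (log2 -0.662, adjusted p = 0.0554).

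Calb1, Aqp2 and Scnn1a did not pass at day 3. Aqp2 was at 6.68, 6.69 and 6.82 on the day 3 arrays, against 6.87, 6.99 and 6.68 on the uninjured arrays. These ranges overlapped, with a difference of log2 -0.118 (SE 0.237, adjusted p = 0.778). Scnn1a was at 7.73, 7.04 and 7.87, against 8.33, 8.66 and 8.38 in uninjured kidney (log2 -0.907, SE 0.302, adjusted p = 0.0579), and Scnn1a passed when array 8, 10 or 11 was left out. Calb1 was at 7.19, 7.88 and 8.12, against 9.34, 9.25 and 9.22 in uninjured kidney (log2 -1.54, SE 0.609, adjusted p = 0.104). The probe sets of Calb1 disagreed here: 2 others gave log2 -3.88 (adjusted p = 0.000985) and log2 -2.79 (adjusted p = 0.00517) at day 3, and the last, with means from 4.98 to 5.30, gave log2 0.12 (adjusted p = 0.740).

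By day 7 of folic acid injury the test called 5 genes lower than in uninjured kidney, Slc12a3, Kcnj1, Egf, Aqp2 and Aqp3, where 4.19% of all genes were called lower. The 3 arrays of this group differed more than those of any other group in their mean over the 10 genes, which was 8.10, 7.35 and 6.29 on arrays 4, 5 and 6. Slc12a1 measured 9.39, 7.01 and 6.41 at day 7, so that array 4 lay within the uninjured range, which started at 8.77. Its difference was log2 -2.14 (SE 0.656, adjusted p = 0.0541), and it passed when array 4 or array 15 was left out. Aqp3 was low on all 3 arrays at day 7, at 5.55, 5.47 and 5.18, against 7.64, 8.21 and 7.34 in uninjured kidney (log2 -2.33, SE 0.269, adjusted p = 0.000183). Kcnj1 was at 7.31, 6.55 and 5.44 at day 7 (log2 -2.32, adjusted p = 0.00462), and Slc12a3 at 7.44, 8.14 and 6.43 (log2 -2.10, adjusted p = 0.00890). Aqp2 was at 6.53, 6.09 and 5.46, a difference of log2 -0.821 (adjusted p = 0.0425), and Egf differed by log2 -3.30 (SE 0.951, adjusted p = 0.0419). For Egf and for Aqp2 alike, dropping a single array ended the call for 10 of the 15 arrays.

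On the day 14 arrays of this series the test called 0 of the 10 against uninjured kidney, where 5.67% of all genes were called in either direction. At an unadjusted p under 0.05, 2 of the 10 differed, Aqp2 and Aqp3, where 20.4% of all genes did, a share close to that of the 10. Slc12a1 was at 8.78, 9.21 and 8.37 at day 14, against 9.81, 10.65 and 8.77 in uninjured kidney, with overlapping arrays (log2 -0.957, 95% interval -2.38 to 0.47, adjusted p = 0.458). Umod was at 11.85, 12.05 and 11.61, within the uninjured range of 11.17 to 12.15 (log2 0.0909, interval -1.08 to 1.26). Scnn1a differed by log2 0.0293 (interval -0.63 to 0.69). A missing call is no measure of likeness here: the interval of Egf ran from log2 -3.44 to 0.69.

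The aquaporins of the principal cell had day 14 differences of opposite sign, and neither was called. Aqp2 measured 7.57, 7.68 and 7.19, and all 3 arrays lay above the highest uninjured array, at 6.99 (log2 0.637, SE 0.237, adjusted p = 0.147). Aqp3 measured 6.68, 7.27 and 6.71, and all 3 arrays lay below the lowest uninjured array, at 7.34 (log2 -0.842, SE 0.269, adjusted p = 0.0927). The share of all genes separated in this way was not counted, so this only describes the values. Neither passed, although Aqp3 passed with quantile normalization, with array weights and with the mean of its probe sets. Kcnj1 was likewise below every uninjured array without being called, with a highest day 14 value of 8.41 and a lowest uninjured value of 8.47. Calb1 was also above every uninjured array at day 14, at 9.57, 10.26 and 9.78 (log2 0.599, SE 0.609, adjusted p = 0.632), but 2 of its other probe sets gave log2 -0.442 and -0.424. In a fit over all probe sets, a second probe set of Kcnj1 was called lower at day 14 (log2 -1.19, adjusted p = 0.0308), while the brightest was not (log2 -0.806, adjusted p = 0.342). A second, dimmer probe set of Slc12a3 was also called lower (log2 -1.05, adjusted p = 0.0214), and the brightest was not (log2 -0.670, adjusted p = 0.448).

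**Figure D2:**
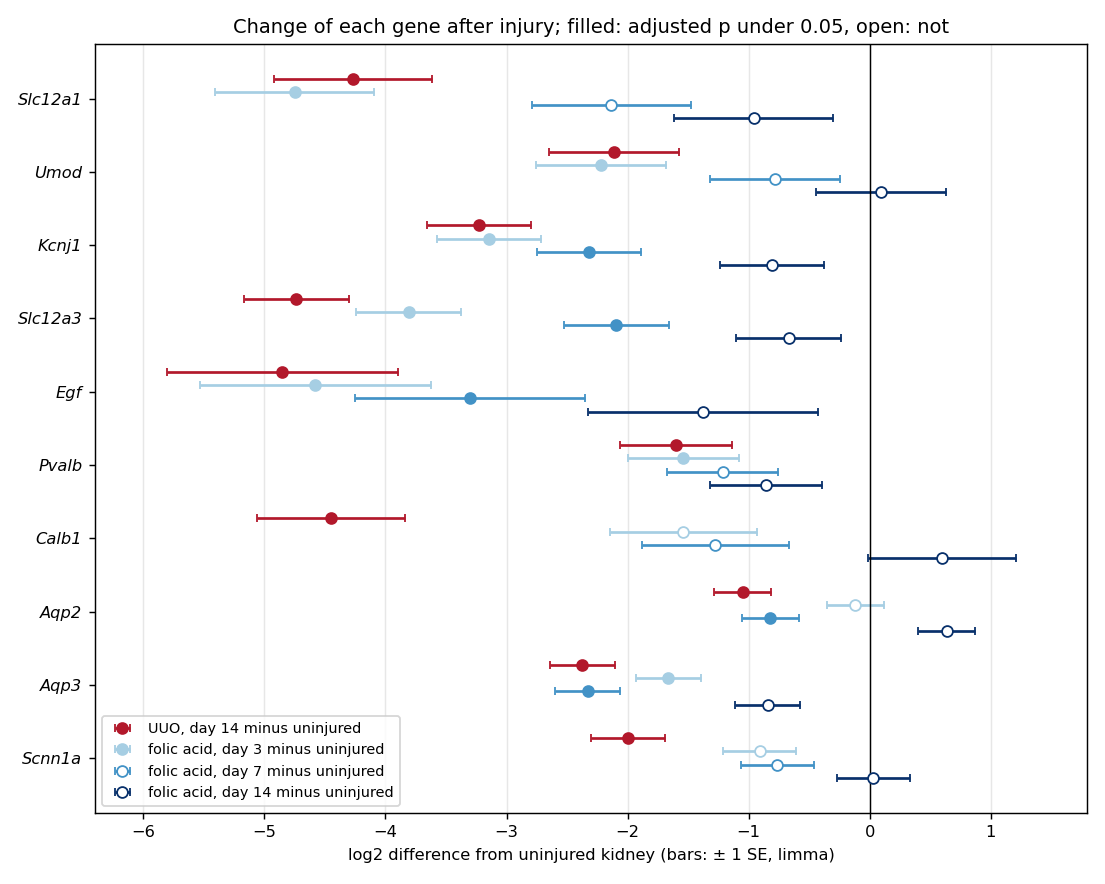
Points give the log2 difference from uninjured kidney (horizontal axis) for each gene (vertical axis) in UUO and at folic acid day 3, day 7 and day 14, with bars of 1 standard error from limma. Filled points passed at an adjusted p under 0.05: all 10 in UUO, 7 at day 3, 5 at day 7 and 0 at day 14. Over all genes 7.52% were called lower in UUO, 6.39% at day 3 and 4.19% at day 7. At day 14, 5.67% were called in either direction.

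Within the folic acid series the same genes were set between days. Against day 3, the test called 4 of the 10 higher at day 14, where 1.22% of all genes were called higher, with a median of log2 2.22 over the 10 and -0.0065 over all genes. Slc12a1 averaged 8.78 ± 0.418 at day 14 and 4.99 ± 0.507 at day 3, a rise of log2 3.79 (SE 0.656, 13.9-fold, adjusted p = 0.00974). Slc12a3 averaged 8.77 ± 0.497 at day 14 and 5.63 ± 0.647 at day 3 (log2 3.14, SE 0.434, 8.81-fold, adjusted p = 0.00318). Kcnj1 rose by log2 2.34 (adjusted p = 0.0132) and Umod by log2 2.31 (adjusted p = 0.0402). The call of Kcnj1 ended without array 1 or array 3, and that of Umod on dropping a single array for 9 of the 15. Egf (log2 3.20, adjusted p = 0.0974) and Calb1 (log2 2.14, adjusted p = 0.0836) did not pass. Their day 14 arrays lay above all day 3 arrays, a separation that was not counted over all genes. The other probe sets of Slc12a3 (log2 0.399, adjusted p = 0.449) and Kcnj1 (log2 0.985, adjusted p = 0.0886) did not give the call, while 2 others of Calb1 were called higher (log2 3.45, adjusted p = 0.00973, and log2 2.35, adjusted p = 0.0440).

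Between neighbouring days the test called 0 of the 10, for day 7 against day 3 (0.695% of all genes in either direction) and for day 14 against day 7 (0.0518%). At an unadjusted p under 0.05, 3 were higher and 2 lower at day 7 than at day 3, where 4.68% of all genes were higher and 6.37% lower. At the same threshold 6 were higher and 0 lower at day 14 than at day 7, where 4.35% of all genes were higher and 4.48% lower. For day 14 against day 7, Aqp2 was closest to the threshold, at log2 1.46 (SE 0.237, adjusted p = 0.0589). Its 3 day 14 arrays, at 7.57, 7.68 and 7.19, lay above its day 7 arrays, at 6.53, 6.09 and 5.46. For day 7 against day 3, Slc12a1 (log2 2.62, adjusted p = 0.106) and Slc12a3 (log2 1.71, adjusted p = 0.107) were higher on all day 7 arrays than on any day 3 array and did not pass. Aqp2 and Aqp3 were lower on all day 7 arrays than on any day 3 array, at log2 -0.702 (adjusted p = 0.249) and log2 -0.665 (adjusted p = 0.362), and did not pass either. The share of all genes whose arrays separated between days in this way was not counted, so these separations only describe the values.

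The day 14 groups allow obstruction to be set against folic acid at a matched time. In UUO 8 of the 10 were called lower than at folic acid day 14, where 1.75% of all genes were called lower, and the median was log2 -2.31, beside -0.0103 over all genes. Calb1 had the largest difference of the 10, at 4.62, 3.83 and 6.02 in UUO, against 9.57, 10.26 and 9.78 at folic acid day 14 (log2 -5.05, SE 0.609, 33.1-fold, adjusted p = 0.00236). Slc12a3 followed, at 5.13, 4.51 and 4.45 in UUO, against 8.54, 9.33 and 8.42 at folic acid day 14 (log2 -4.07, SE 0.434, 16.8-fold, adjusted p = 0.00158). The arrays of the groups were far apart for both genes. Aqp2 was at 5.62, 5.70 and 6.07 in UUO, against 7.57, 7.68 and 7.19 at folic acid day 14 (log2 -1.69, SE 0.237, 3.22-fold, adjusted p = 0.00454).

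The other genes called were Slc12a1 (log2 -3.31, adjusted p = 0.0189), Kcnj1 (log2 -2.42, adjusted p = 0.0123), Umod (log2 -2.20, adjusted p = 0.0471), Scnn1a (log2 -2.03, adjusted p = 0.00648) and Aqp3 (log2 -1.53, adjusted p = 0.0117). Egf did not pass, at log2 -3.48 (SE 0.951, adjusted p = 0.0726). Its folic acid day 14 arrays were at 9.60, 10.15 and 7.62, and Egf passed without array 4, 6 or 9. Pvalb was at log2 -0.744 (SE 0.460, adjusted p = 0.472). The call of Slc12a1 ended without array 7, 8, 11 or 12, and that of Umod on dropping a single array for 13 of the 15.

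For 4 of the 8 genes called at the matched time, the call was not given by at least 1 other probe set. The second probe set of Slc12a3 averaged 4.28 in UUO and 4.68 at folic acid day 14 (log2 -0.401, adjusted p = 0.439), so that the 16.8-fold difference rests on the brightest one. For Calb1, 2 other probe sets were called lower (log2 -3.79, adjusted p = 0.00844, and log2 -2.38, adjusted p = 0.0435) and the one with means from 4.98 to 5.30 was not (log2 -0.292, adjusted p = 0.541). Umod had log2 -2.27 on its other probe set (adjusted p = 0.0511). Neither other probe set of Aqp3 was called (log2 -1.74, adjusted p = 0.10, and log2 -0.342, adjusted p = 0.494), while that of Kcnj1 was (log2 -1.20, adjusted p = 0.0428).

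UUO was also set beside the earlier days of folic acid, which differ from it in time. Against day 7, only Slc12a3 was called lower of the 10 (log2 -2.64, SE 0.434, adjusted p = 0.0296), where 0.163% of all genes were called lower. Calb1 had a larger difference there without passing (log2 -3.18, SE 0.609, adjusted p = 0.0559), and it passed without array 6 or 12. Against day 3, Calb1 alone was called (log2 -2.91, SE 0.609, adjusted p = 0.0404), where 0.606% of all genes were called lower. Dropping a single array ended the Slc12a3 call for 8 of the 15 arrays and the Calb1 call for 9. The other probe set of Slc12a3 (log2 -0.494, adjusted p = 0.536) and the 3 of Calb1 did not give these calls. Slc12a1 averaged 5.47 in UUO and 4.99 at folic acid day 3 (log2 0.481, adjusted p = 0.860), and Umod 9.64 in UUO and 9.53 at day 3 (log2 0.110, adjusted p = 0.841).

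Across all 5 groups limma's F test called 9 of the 10, where it called 15.3% of all genes. Pvalb was the gene not called (adjusted p = 0.108). The order of the group means ran from uninjured kidney down to folic acid day 14, day 7, day 3 and UUO for Slc12a3, Kcnj1, Egf and Pvalb. No step between neighbours in that order passed for any of these 4 genes. Folic acid day 14 stood above uninjured kidney for Calb1, Umod, Aqp2 and Scnn1a, also without passing. UUO had the lowest mean except for Slc12a1 and Umod, and for Slc12a1 and Umod the lowest mean was at folic acid day 3. In the order of means the only neighbours that differed were folic acid day 3 and UUO for Calb1.

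The range of a gene over the 15 arrays was log2 6.44 for Calb1, 6.19 for Slc12a1, 5.81 for Egf and 5.36 for Slc12a3, and it was log2 2.23 for Aqp2 and 2.52 for Pvalb. Uninjured array 14 held the highest value of 7 of the genes, and array 8 of folic acid day 14 that of Calb1, Aqp2 and Scnn1a. At the low end, Slc12a1 and Calb1 each lay under the 40th percentile of their array on 1 array and Slc12a3 on 2. Other genes were above that percentile but also low in UUO, with means of 5.36 for Aqp3, 5.46 for Pvalb and 5.65 for Egf. Array medians lay between 4.93 and 5.06. The differences of all these genes may be compressed at such levels, which was not measured. To compare shapes, each gene was centred on its own mean and the root mean square of the difference was taken over the 15 arrays. Aqp2 and Scnn1a were the closest pair of the 10, at 0.507, and Egf and Aqp2 the farthest apart, at 1.78. Genes of small range are closer by this measure whatever their pattern.

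By the same measure, the genes outside the 10 that lay nearest to Slc12a1 were Kl, the FGF23 coreceptor klotho of the distal convoluted tubule, at 0.583, Wfdc15b at 0.735 and the monocarboxylate transporter Slc16a7 at 0.777. The median over all genes was 2.00. Nearest to Slc12a3 were again Kl at 0.648 and Slc16a7 at 0.664, then S100g, the calcium carrier calbindin-D9k, at 0.727, beside a median of 1.89. Nearest to Aqp2 were Ndufv1, a subunit of respiratory complex I, at 0.293, Lad1 at 0.294 and the glycolytic enzyme Aldoa at 0.301, beside a median of 0.732.

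Further genes of the same segments were listed to see how widely these differences extended, 72 besides the 10, of which 63 were measured and 61 tested. In UUO 33 of the 61 were called lower than in uninjured kidney and 0 higher, with a median of log2 -1.21. Over all genes 7.52% were called lower. After folic acid, 26 were lower at day 3 (median log2 -1.08) and 13 at day 7 (median log2 -0.673), where 6.39% and 4.19% of all genes were. At day 14, 2 were lower (median log2 -0.00391), where 199 of the 13523 genes tested were. The test called 0 higher at any of these days. At an unadjusted p under 0.05, 0 were higher in UUO, at day 3 or at day 7, where 15.1%, 17.4% and 14.9% of all genes were. At day 14, 4 were higher and 7 lower at that threshold, where 12.1% of all genes were higher and 8.25% lower. In UUO against folic acid day 14, 21 were lower and 0 higher (median log2 -1.22), where 1.75% of all genes were lower. Relative to folic acid day 3, 11 were higher at day 14 and 0 lower (median log2 1.09), where 1.22% of all genes were higher.

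By segment, the distal convoluted tubule had the most called in UUO against uninjured kidney. Of its 11 other genes 10 were lower, with a median of log2 -2.72, where 7.52% of all genes were lower. Klk1, the tissue kallikrein of the connecting tubule, averaged 6.92 ± 0.584 in UUO and 12.0 ± 0.130 in uninjured kidney (log2 -5.08, SE 0.532, 33.8-fold, adjusted p = 6.58e-05). Its level at folic acid day 14, 11.56 ± 0.504, was not called different (log2 -0.441, adjusted p = 0.695). S100g was called lower, at log2 -3.60 in UUO (adjusted p = 0.00153) and stood at log2 -0.00391 at folic acid day 14. Slc8a1, the sodium-calcium exchanger, was called lower, at log2 -2.74 in UUO (adjusted p = 0.00783) and at log2 -2.97 at folic acid day 3 (adjusted p = 0.00505).

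In the thick ascending limb 6 of 8 other genes were lower in UUO (median log2 -1.60) and 6 at folic acid day 3 (median log2 -1.73). Over all genes 7.52% and 6.39% were called lower in these comparisons. Casr, the calcium-sensing receptor, was called lower, at log2 -1.18 in UUO (adjusted p = 0.0105) and at log2 -1.73 at folic acid day 3 (adjusted p = 0.00103). Ppp1r1a, an inhibitor of protein phosphatase, was called lower, at log2 -2.32 in UUO (adjusted p = 0.00945) and at log2 -2.47 at day 3 (adjusted p = 0.00691). Tmem72, a membrane protein of the kidney, was called lower, at log2 -1.53 in UUO (adjusted p = 0.000828). In UUO against folic acid day 14, 0 of the 8 passed (median log2 -0.996), and 5 were lower at an unadjusted p under 0.05, where 9.71% of all genes were.

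Of 13 other principal cell genes 6 were lower in UUO than in uninjured kidney (median log2 -1.21). Against folic acid day 14, 7 were lower in UUO (median log2 -1.58). Over all genes 7.52% and 1.75% were called lower in these comparisons. Scnn1g, the gamma subunit of ENaC, averaged 5.45 ± 0.348 in UUO and 8.35 ± 0.102 in uninjured kidney (log2 -2.90, adjusted p = 0.000208). It was among the 2 listed genes still lower at folic acid day 14, at 7.02 ± 0.387 (log2 -1.32, adjusted p = 0.0496). Hsd11b2, which protects the mineralocorticoid receptor from cortisol-like steroids, was called lower, at log2 -2.77 in UUO (adjusted p = 0.00191) and stood at log2 0.197 at folic acid day 14. Kcne1, a potassium channel subunit, was called lower, at log2 -1.06 in UUO (adjusted p = 0.00586).

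Of 12 other intercalated cell genes 4 were lower in UUO (median log2 -0.585), where 7.52% of all genes were. Car2, a carbonic anhydrase, was called lower, at log2 -3.92 in UUO (adjusted p = 0.00141), Slc4a1, the anion exchanger of acid-secreting cells, at log2 -2.00 (adjusted p = 0.00185) and Slc26a4, the exchanger pendrin, at log2 -1.71 (adjusted p = 0.00900). Of 17 transcription factors and shared epithelial genes 7 were lower in UUO (median log2 -0.700), where 7.52% of all genes were. Among them were the factors Tfap2b (log2 -1.39, adjusted p = 0.00149) and Pou3f3 (log2 -2.03, adjusted p = 0.00203) and the kidney cadherin Cdh16 (log2 -2.14, adjusted p = 0.00468). Pou3f3 was the other gene called lower at folic acid day 14 (log2 -1.34, adjusted p = 0.0448).

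**Figure D3:**
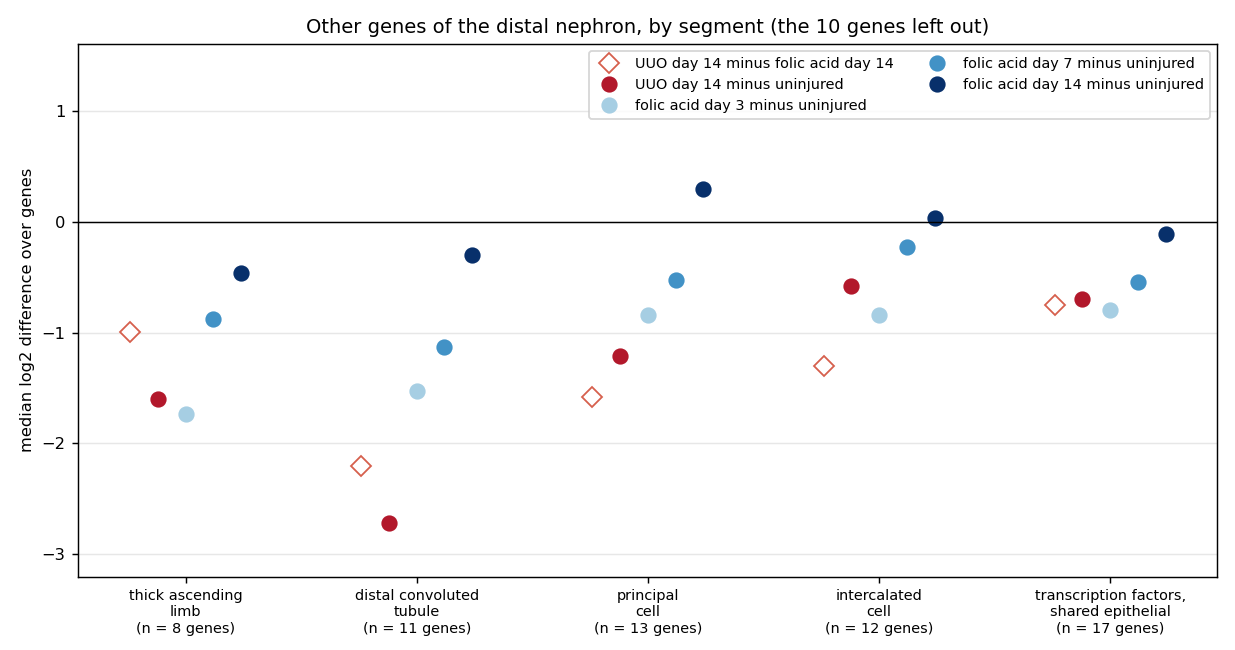
Points give the median log2 difference (vertical axis) over the other tested genes of each distal nephron list (horizontal axis), with each injury group set against uninjured kidney and UUO also against folic acid day 14. The lowest median in UUO against uninjured kidney is that of the distal convoluted tubule list, at log2 -2.72, and the folic acid day 14 medians lie between log2 -0.464 and 0.293.

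The distal genes were then set beside proximal tubule markers on the same arrays. The mean over the 10 genes was 5.94, 5.72 and 6.00 on the UUO arrays and 8.94, 9.35 and 8.58 on the uninjured arrays. Over 12 proximal tubule markers the mean was 5.94, 5.50 and 5.39 on the UUO arrays and 8.29, 8.62 and 9.59 on the uninjured arrays. Both means were low in UUO and high in uninjured kidney. In UUO 9 of the 12 proximal markers were called lower, where 7.52% of all genes were. The means also moved together over the single arrays of folic acid day 7: on arrays 4, 5 and 6 the distal mean was 8.10, 7.35 and 6.29 and the proximal mean 8.43, 6.87 and 5.61. At day 3 the distal mean was 6.28, 6.78 and 6.52 and the proximal mean 6.79, 6.69 and 6.69.

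On some arrays the means did not move together. Array 9 of folic acid day 14 had a proximal mean of 7.04, against 9.16 and 8.99 on arrays 7 and 8, while its distal mean was 8.11, against 8.55 and 8.95. Among the uninjured arrays, array 15 had the highest proximal mean, at 9.59, and the lowest distal mean, at 8.58. Slc12a1 was at 8.77 on array 15 and at 9.81 and 10.65 on arrays 13 and 14. The fibroblast mean on arrays 13, 14 and 15 was 6.16, 6.12 and 5.42.

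**Figure D4:**
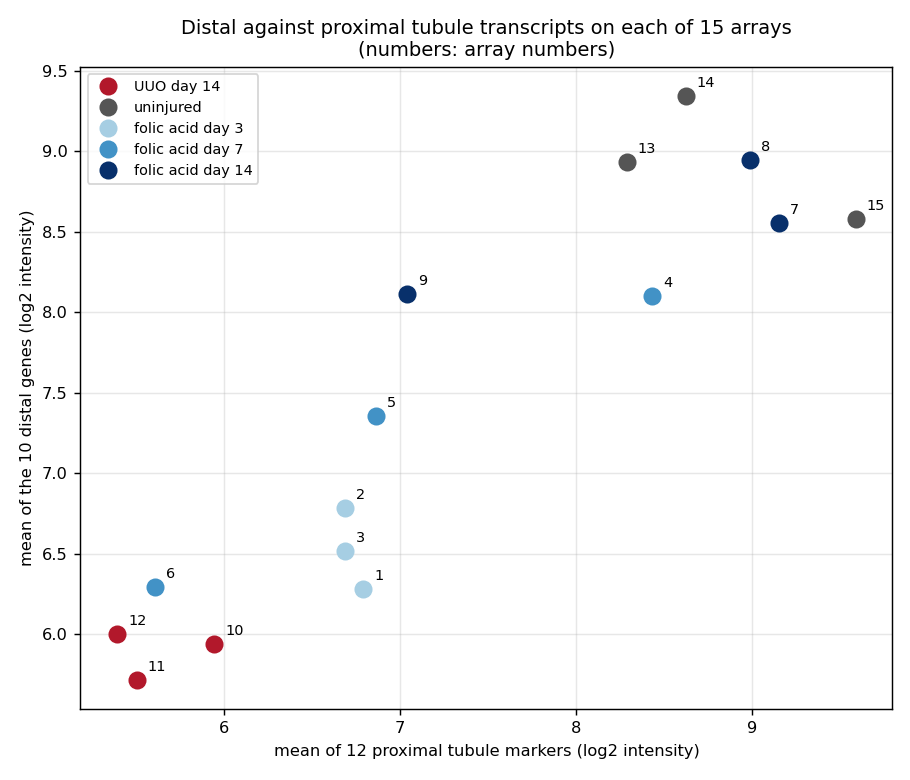
Each point is an array, with the mean log2 intensity of the 12 proximal tubule markers (horizontal axis) and of the 10 distal genes (vertical axis), numbered as labelled. The UUO arrays lie at the lower left and the uninjured arrays at the upper right, and array 9 of folic acid day 14 combines a distal mean of 8.11 with a proximal mean of 7.04.

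With the proximal mean of each array as a covariate, 2 of the 10 genes were called lower in UUO against uninjured kidney, where 0.606% of all genes were, against 10 and 7.52% without the covariate. The 2 were Slc12a3 (log2 -3.85, adjusted p = 0.0210) and Aqp3 (log2 -2.14, adjusted p = 0.0417). The proximal mean ran from 5.39 to 5.94 in UUO and from 8.29 to 9.59 in uninjured kidney, and from 6.69 to 6.79, 5.61 to 8.43 and 7.04 to 9.16 at folic acid day 3, day 7 and day 14. These ranges do not overlap for UUO against uninjured kidney, day 14 or day 3, for day 3 against uninjured kidney, or for day 14 against day 3, so that the covariate values of these 5 comparisons are extrapolated. For folic acid day 3, 4 genes were called lower with the covariate, where 2.25% of all genes were. They were Slc12a1 (log2 -3.60, adjusted p = 0.0180), Slc12a3 (log2 -3.23, adjusted p = 0.00610), Kcnj1 (log2 -2.60, adjusted p = 0.0175) and Aqp3 (log2 -1.51, adjusted p = 0.0325). At day 7 it left Aqp3 (log2 -2.19, adjusted p = 0.00543), where 1.49% of all genes were called lower. At day 14 it called Aqp2 higher (log2 0.738, adjusted p = 0.0448), where 4.78% of all genes were. For folic acid day 14 against day 3 it left Slc12a3 (log2 2.68, adjusted p = 0.0353), where 0.503% of all genes were called higher.

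In UUO against folic acid day 14 the covariate left 0 of the 8 calls, and over all genes it left 0.0961% called lower. The fitted differences of some genes stayed large, at log2 -4.01 for Calb1 (adjusted p = 0.149, log2 -5.05 without the covariate) and log2 -3.30 for Slc12a3 (adjusted p = 0.0899, log2 -4.07 without it). Slc12a1 was at log2 -1.79 (adjusted p = 0.647) and Umod at log2 -1.05 (adjusted p = 0.818). The calls of Slc12a3 in UUO against day 7 (log2 -2.27, adjusted p = 0.0969) and of Calb1 in UUO against day 3 (log2 -2.50, adjusted p = 0.105) were lost as well, where 0.244% and 0.828% of all genes were called lower, more than the 0.163% and 0.606% without the covariate. The F test with the covariate called 3 of the 10, where it called 7.11% of all genes. How far tubule RNA carried into the sort had a part in these differences was not tested.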

How the data were processed

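RNA of the sorted cells was amplified and labelled with biotin, per the labels' protocols. On each of 15 arrays 45141 probe sets were deposited as log2 values, which the authors obtained by RMA, per the submitters' processing notes. Those notes list affy and limma too, with no version. The values were not normalized again, and array medians lay between 4.93 and 5.06. No measure of background signal was used besides RMA itself, so differences of dim genes may be compressed. The number of arrays limits the precision.

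Probe sets were named through the platform annotation, where 28898 had 1 gene, 551 several and 15692 none. Genes above the 40th percentile of their array on at least 3 arrays were tested, 13523 of 17097. The model, 5 group means over the 15 arrays with 10 residual degrees of freedom, used lmFit and eBayes of limma 3.58.1 under R 4.3.3. Its 2-sided moderated test was adjusted by Benjamini-Hochberg over all genes tested in each comparison, and calls were made below 0.05. The script was tested on simulated data.

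The 10 genes and all lists were chosen with earlier results of these data known. Up to 3 further genes with the smallest F test p were named per segment list, and the 3 genes nearest in profile for Slc12a1, Slc12a3 and Aqp2. The remaining 3 of 15 listed proximal tubule markers, Slc34a1, Lrp2 and Gatm, were not analysed here. Comparisons that share a group share its arrays. Nothing pairs arrays between groups. Plots used matplotlib 3.10.9. The alternatives were median centring, quantile normalization, array weights, limma's trend and robust options, no filter, a filter at the 60th percentile, other probe sets or their mean, a threshold of 0.01, the 6 arrays compared alone, leaving out each array, and a proximal tubule covariate.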

Additional observations from a re-analysis of the deposited data

Results flagged for a closer look

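The effects of the injury groups, each set against the same uninjured arrays, differed from one another for 8 genes by limma's test of the difference itself. In UUO against folic acid day 14 the difference was log2 -3.31 for Slc12a1, log2 -4.07 for Slc12a3, log2 -2.42 for Kcnj1 and log2 -5.05 for Calb1. It was log2 -2.20 for Umod, log2 -1.69 for Aqp2, log2 -1.53 for Aqp3 and log2 -2.03 for Scnn1a. In UUO against folic acid day 7 it was log2 -2.64 for Slc12a3, and in UUO against folic acid day 3 it was log2 -2.91 for Calb1. At folic acid day 14 against day 3 the difference was log2 3.79 for Slc12a1, log2 3.14 for Slc12a3, log2 2.34 for Kcnj1 and log2 2.31 for Umod. Over all genes 1.75% were called lower in UUO against folic acid day 14, 0.163% against day 7 and 0.606% against day 3. For folic acid day 14 against day 3, 1.22% of all genes were called higher. The proximal tubule mean moved in the same direction as the named genes in each of these comparisons. It was 5.61 in UUO and 6.72, 6.97 and 8.39 at folic acid day 3, day 7 and day 14. Its part in these differences was not tested. Dropping a single array ended the Umod call in UUO against folic acid day 14 for 13 of the 15 arrays. The same held for Slc12a3 against day 7 for 8 arrays and for Calb1 against day 3 for 9. Some of these calls were not given by other probe sets.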

How the results depend on the processing

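The counts of genes called out of 10 changed most with the proximal tubule covariate, and those over all genes changed too. Against uninjured kidney it gave 2 for UUO (10 without it), where the count over all genes in either direction was 290 (2244 without it). For folic acid day 3 it gave 4 (7), with 1023 (2304) over all genes. It gave 1 (5) at day 7, with 734 (1580) over all genes, and 1 (0) at day 14, with 877 (767). In the F test it gave 3 (9), with 961 (2070) over all genes. It gave 0 in UUO against folic acid day 14 (8), with 14 (410) over all genes. UUO had 0 against day 7 (1), with 40 (37) over all genes, and 0 against day 3 (1), with 186 (153). Folic acid day 14 against day 3 had 1 (4), with 131 (412) over all genes. The threshold of 0.01 gave 3 at day 7, 4 in UUO against folic acid day 14, 0 against day 7, 0 against day 3, and 2 at day 14 against day 3. Over all genes it gave 619, 79, 8, 64 and 110 in these comparisons, in that order. The main threshold gave 1580, 410, 37, 153 and 412. Fitting only the 6 arrays compared gave 3 at day 7, 4 in UUO against folic acid day 14, 0 against day 7 and 0 against day 3. Over all genes this fit gave 1210, 94, 0 and 183 in these comparisons. It gave 9 (7 in the main fit) at folic acid day 3, with 2835 (2304) over all genes. At day 14 against day 3 it gave 5 (4), with 156 (412) over all genes. Array weights gave 1 at folic acid day 14 against uninjured kidney, 2 in UUO against day 7 and 2 against day 3. Over all genes they gave 1149 (767 without them), 45 (37) and 243 (153). Array weights also gave 9 (7) at folic acid day 3, 7 (5) at day 7 and 10 (9) in the F test. The counts over all genes were then 3439 (2304), 1990 (1580) and 3291 (2070). Quantile normalization gave 1 at folic acid day 14, with 868 (767) over all genes. It gave 8 (7) at day 3 and 7 (5) at day 7, with 2459 (2304) and 1738 (1580) over all genes. The mean of probe sets gave 1 at folic acid day 14, 0 in UUO against day 3 and 1 at day 14 against day 7. Over all genes it gave 593 (767), 209 (153) and 10 (7). The filter at the 60th percentile gave 2 in UUO against day 7, with 49 (37) over all genes. No filter gave 0 in UUO against day 3, with 146 (153). Smaller changes in the counts with the filters, the mean of probe sets, median centring and limma's trend and robust options are not listed.

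With each array left out in turn the counts ran from 8 to 10 in UUO against uninjured kidney, from 5 to 8 at day 3, from 3 to 6 at day 7 and stayed at 0 at day 14. Over all genes the counts ran from 1495 to 2385, 1463 to 2450, 880 to 1751 and 350 to 892 in these comparisons. The counts out of 10 ran from 6 to 9 in UUO against folic acid day 14, from 0 to 2 against day 7 and from 0 to 2 against day 3. Those over all genes ran from 163 to 698, 13 to 108 and 94 to 193. Out of 10 the counts ran from 0 to 3 at day 7 against day 3 (3 without array 6). They ran from 0 to 1 at day 14 against day 7, and from 2 to 6 at day 14 against day 3. Those over all genes ran from 31 to 180 (180 without array 6), 1 to 50 and 155 to 527.

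The sign of 8 differences turned, all without a call in either setting. At folic acid day 14 Umod turned to log2 -0.0106 with quantile normalization, -0.105 with array weights and -0.0125 on its other probe set. Leaving out an array, it ran from -0.196 to 0.295. Scnn1a turned to -0.217 with quantile normalization and -0.0284 with array weights, and ran from -0.211 to 0.155 without single arrays. Calb1 turned to -0.0442 with the mean of probe sets and to -0.442 and -0.424 on other probe sets. A further Calb1 probe set gave 0.12 at day 3 and -0.0297 at day 14 against day 3. The covariate turned Aqp2 at day 3 to 0.366, Pvalb in UUO against folic acid day 14 to 0.46 and Pvalb at day 14 against day 3 to -0.0382. The cause of these changes was not tested. No paired analysis was possible because the groups share no replicate numbers.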
